A study of Mus musculus with 7 samples.

Results

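Genes of fatty acid oxidation were followed across mouse bladders of 2 ages and a whole-newborn sample. The list held 35 genes for fatty acid uptake and activation, the carnitine shuttle, mitochondrial and peroxisomal beta-oxidation, electron transfer, and a regulator with its target. A probe set was used when the array's annotation assigned it to 1 listed gene only, and the probe set with the highest mean over the 7 arrays stood for the gene. By this rule 33 of the 35 genes were measured, among 18193 genes with a probe set of their own. The probe set for Cpt1b also named other genes and was left out, and Acsl1 was not analysed here. All 3 kinds of sample came from FVB/N mice, and total RNA went through 2 rounds of amplification before each sample was hybridised to 1 Affymetrix mouse 430 2.0 array. The first group was 3 bladders of adult males (Theiler stage 28) that carried SMGA/EGFP, a transgene in which the smooth muscle gamma-actin promoter drives a green fluorescent protein. The second was 3 bladders of SMGA/EGFP males at postnatal day 1 (Theiler stage 27), and the third a pool of whole wild-type newborns of the same day, 4 males and 4 females. For the newborn pool the title speaks of bladders and the source and protocol of whole animals, which was taken as right. It therefore differed from the bladders in tissue, sex, genotype and pooling together, and it was 1 array with no replicate. Storage differed with stage, liquid nitrogen for adult bladders and a freezer for newborn tissue, and these cannot be told apart. Each bladder sample was unpooled, and p-values measure the spread between these single samples.

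Fatty acids are oxidised in mitochondria and in peroxisomes. Acyl-CoA synthetases activate them, the carnitine shuttle carries long chains into the mitochondrion, and a cycle of dehydrogenation, hydration, a second dehydrogenation and thiolysis then shortens them, passing electrons to the respiratory chain through the electron transfer flavoprotein. Peroxisomes run a parallel cycle that handles very long and branched chains and dicarboxylic acids. In liver, the nuclear receptor PPAR-alpha, encoded by Ppara, activates many of these genes, Ehhadh, Acaa1b and Cyp4a14 among them, and heart, liver, kidney and brown fat are known for high oxidation of fatty acids.

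Acaa1b was the listed gene whose representative probe set passed the stage test. It is one of a pair of closely similar mouse genes for the peroxisomal thiolase. The promoters of that pair, and of Ehhadh, a peroxisomal enzyme of the preceding steps, are therefore shown first. The sequences are from RefSeq, build GRCm38.p6, read 5′ to 3′ on the gene's own strand from 250 bases before to 50 bases after the annotated start. Acaa1b lies at chr9:119157044-119157343 on the minus strand, Acaa1a at chr9:119341044-119341343 on the plus strand and Ehhadh at chr16:21787785-21788084 on the minus strand. Capitals mark the GC box GGGCGG or its reverse complement.
Acaa1b: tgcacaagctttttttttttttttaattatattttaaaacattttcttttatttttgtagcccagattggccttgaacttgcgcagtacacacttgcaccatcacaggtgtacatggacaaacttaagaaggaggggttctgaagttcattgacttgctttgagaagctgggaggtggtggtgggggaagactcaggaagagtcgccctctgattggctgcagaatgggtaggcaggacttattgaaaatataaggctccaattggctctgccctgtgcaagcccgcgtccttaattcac
Acaa1a: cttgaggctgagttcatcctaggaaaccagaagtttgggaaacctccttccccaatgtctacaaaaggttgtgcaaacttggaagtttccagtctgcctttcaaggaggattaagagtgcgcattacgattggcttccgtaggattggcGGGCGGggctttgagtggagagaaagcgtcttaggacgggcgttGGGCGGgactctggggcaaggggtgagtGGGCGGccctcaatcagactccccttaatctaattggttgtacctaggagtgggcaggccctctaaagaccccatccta
Ehhadh: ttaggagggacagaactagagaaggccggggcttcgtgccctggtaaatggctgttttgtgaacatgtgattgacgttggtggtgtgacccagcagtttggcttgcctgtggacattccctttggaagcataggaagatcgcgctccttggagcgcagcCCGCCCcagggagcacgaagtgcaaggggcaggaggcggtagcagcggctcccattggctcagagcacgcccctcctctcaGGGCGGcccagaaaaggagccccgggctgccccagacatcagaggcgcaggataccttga
The Acaa1b window held 0 GC boxes and 43.7% G and C, against 3 boxes and 53.3% for Acaa1a and 2 boxes and 60.7% for Ehhadh. Of the 31 promoters found for 28 listed genes, none had a lower G and C share than that of Acaa1b, and their median was 60.7%, against 52.7% over all 32851 promoters of the table. The GC box, counted on both strands, was in 23 of the 31 promoters, against 35.7% of all. The element that PPAR-alpha binds with its partner RXR was searched on both strands as 2 copies of AGGTCA in the same direction with 1 base between them. It was in 0 of the 31 and in 0.0396% of all promoters. A looser form, with any base at the fourth position of each copy, includes the first and was also in 0 of 31, against 0.381% of all. A single AGGTCA was in 5 of 31, against 16.3% of all. These are matches of letters in short windows only.

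Most of the pathway was well above the middle of the arrays in bladder. Of the 33 measured genes, 30 were above their array's median on all 6 bladder arrays, as were 9831 of all 18193 genes. The exceptions were Slc27a2, Cyp4a14 and Ppara. Depth on an array is signal over background, and no detection calls were used here, so the median intensity is the only mark of a low signal. It was 226 to 312 in adult bladders, 209 to 290 at postnatal day 1 and 434 in the whole newborn. The authors' scaling gave every array the same trimmed mean, and log2 differences below are on the scale of log2(intensity + 49). Spike-in signal, as a multiple of the lowest array, was 2.35 in adult replicate 2, 1.68 in postnatal day 1 replicate 3 and 1.82 in the whole newborn. The ratio of 3′ to 5′ signal of Actb, a sign of RNA quality, was 3.84 to 5.15 in adults, 1.85 to 3.70 at postnatal day 1 and 3.09 in the whole newborn. That of Gapdh was larger, 15.3 to 19.6 in adults, 19.1 to 30.9 at postnatal day 1 and 21.4 in the whole newborn. Actb and Gapdh thus ordered the stages differently, and both ratios show signal weighted to the 3′ end. Across probe sets, log2 values of adult replicate 2 correlated with those of adult replicates 1 and 3 at r = 0.9311 and 0.9357, and these correlated with each other at 0.9714. Adult replicates 1 and 3 carried transcripts of male accessory glands. The smooth muscle and urothelial markers fitted the label bladder, with 8 of 8 and 10 of 10 above the median on all 6 arrays.

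**Figure D1:**
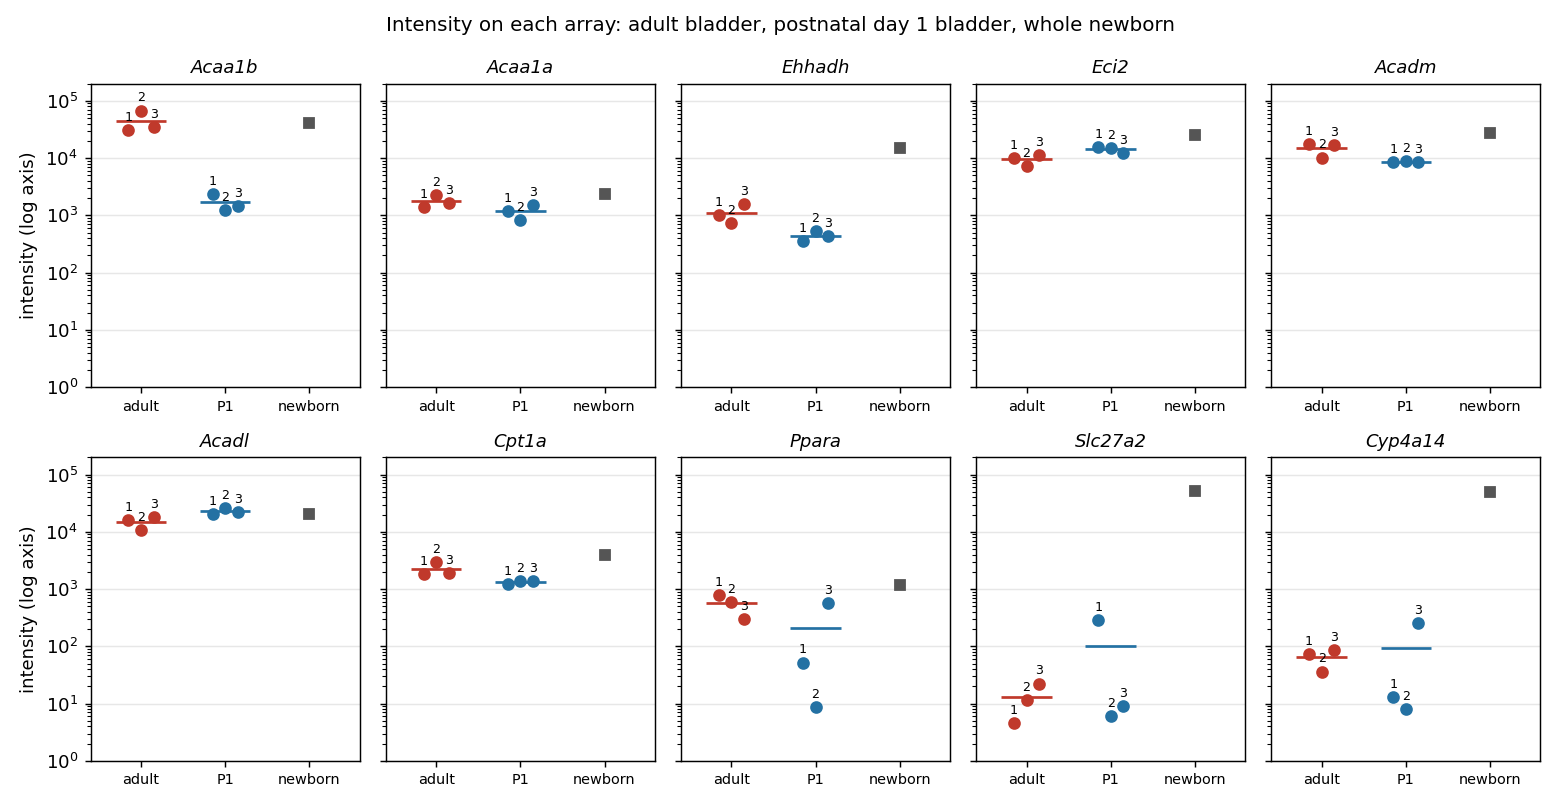
Intensity (log axis) of selected fatty acid oxidation genes on each array, with adult bladder, postnatal day 1 bladder and whole newborn from left to right; points are single arrays, numbered by replicate, and the bars are group means. Acaa1b is far apart between the stages, with adult arrays at the whole newborn's level, whereas Slc27a2 and Cyp4a14 are high in the whole newborn and near the bottom of the scale in bladder.

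The first question was which of these genes differ between adult and postnatal day 1 bladder. By the probe set that stood for each gene, 1 rose, Acaa1b, and 0 fell among the 31 that passed the filter on low values. In limma's test 8.97% of all 11930 genes tested passed, 4.02% higher and 4.95% lower in adults. The median difference of the listed genes was 0.04 log2, against -0.01 over all genes. Of the 31, 19 were positive and 12 negative, and 28 lay within 1 log2 unit of no difference. At an unadjusted p under 0.05 there were 7. The number called was 3 without adult replicate 2, 2 without postnatal day 1 replicate 3 and 3 with arrays weighted by quality. The share of all genes called in those fits is not given, so these counts only show dependence on the arrays. The 95% interval of the difference lay wholly within 2-fold for 18 of the 31 genes, or 58.1%, and for 32.1% of all genes. The median SE was 0.27 log2 for the listed genes and 0.33 log2 for all genes, so these shares compare genes measured with unlike precision.

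Acaa1b encodes the 3-ketoacyl-CoA thiolase that ends each round of peroxisomal oxidation, and it is known in rodent liver for its response to peroxisome proliferators. Its intensity was 31059, 67862 and 34714 in adult bladders, against 2370, 1218 and 1459 in postnatal day 1 bladders and 40737 in the whole newborn. All 3 adult values lay far above all 3 newborn bladder values, with adult replicate 2 the highest, and the groups did not overlap. The mean was 44545 ± 20275 in adults and 1682 ± 607 at postnatal day 1 (SD, n = 3 each). The difference was 4.65 log2 (SE 0.36), or 25.1-fold higher in adults, with an adjusted p of 0.000688 in limma's test. In bulk tissue a change in the number of cells of a type and a change in RNA per cell cannot be told apart.

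Acaa1a, the other gene of the pair, was read by 2 probe sets of its own. The main one gave 1383, 2289 and 1660 in adults, against 1180, 832 and 1543 at postnatal day 1 and 2404 in the whole newborn. These groups overlapped, the difference was 0.58 log2 and the adjusted p was 0.342 in limma's test. The other gave 0.17 log2 with an adjusted p of 0.813. Their names mark both as open to cross-hybridisation with similar transcripts, so part of the Acaa1a signal may not be its own.

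A further 2 probe sets are annotated to Acaa1a and Acaa1b together. One read 17357, 22140 and 19905 in adults, against 6232, 4643 and 6521 at postnatal day 1 and 17744 in the whole newborn. The other read 2861, 2085 and 3328 in adults, against 860, 579 and 1076 at postnatal day 1 and 2636 in the whole newborn. Adult arrays were the higher ones in both, without overlap. The differences were 1.77 log2 (limma adjusted p = 0.00313) and 1.68 log2 (limma adjusted p = 0.0170). The rise therefore appeared in the Acaa1b probe set and in both shared ones, with smaller differences in the shared ones.

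Markers of several other cell types moved with stage. Of 10 adipocyte markers 8 were on the array, and 3 passed the filter for the stage comparison, of which Adipoq and Car3 were called higher and Fabp4 lower in adults. Adipoq, the adipocyte hormone adiponectin, read 1167, 466 and 1231 in adults, against 51.6, 2.28 and 30.0 at postnatal day 1 and 9088 in the whole newborn. All postnatal day 1 values of Adipoq were under the array median, so it passed the filter through the adult arrays alone. Adult replicate 2, the highest adult array for Acaa1b, was the lowest adult array for Adipoq. Summed over the list, intensity was 74419 to 90370 in adults, 53972 to 67731 at postnatal day 1 and 166909 in the whole newborn. Skeletal muscle markers summed to 17521 to 18314 in adults, 76374 to 112161 at postnatal day 1 and 367635 in the whole newborn. Of the 6 tested, all were called lower in adults, among them Ckm and Acta1, which were above the array median on every bladder array. The other 4 tested, Myh3, Myh8, Tnnt3 and Tnnc2, were under it on all adult arrays and passed the filter through the newborn bladders alone. Of 3 heart markers tested 1 was called lower in adults, Actc1, a cardiac actin. Macrophage markers summed to 22943 to 44438 in adults, 11776 to 18869 at postnatal day 1 and 51579 in the whole newborn, and 2 of 8 rose, Csf1r and Lyz2. The part of these cells in the stage values of the listed genes was not tested.

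The other peroxisomal genes did not pass the test. Ehhadh, the bifunctional enzyme that hydrates and then dehydrogenates straight chains, read 1030, 740 and 1563 in adults, against 358, 536 and 434 at postnatal day 1 and 15026 in the whole newborn. Adult values were all above the newborn bladder values, by 1.19 log2 (SE 0.36), with an adjusted p of 0.0805 in limma's test. It passed without adult replicate 2, at 1.44 log2 with a limma adjusted p of 0.0426. Eci2, an enoyl-CoA isomerase that moves double bonds, ran the other way. It read 9987, 7173 and 11548 in adults, against 15844, 15255 and 12108 at postnatal day 1 and 25561 in the whole newborn. These groups did not overlap either, with adults lower by -0.60 log2 and a limma adjusted p of 0.174. Hsd17b4, the bifunctional enzyme for branched and very long chains, differed by 0.26 log2 with overlap. The 5 peroxisomal genes thus ranged from -0.60 to 4.65 log2, with a median of 0.58.

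The mitochondrial genes stayed close together between the stages by the probe sets that stood for them. None of the 20 tested passed, their median difference was 0.04 log2 and their range -0.64 to 0.72 log2. Other probe sets of Cpt1a, Decr1 and Acaa2 differed by 1.67, 1.68 and -1.14 log2, and those of Cpt1a and Decr1 were called, as given below. For 14 of the 20, or 70%, the 95% interval lay within 2-fold. Of the 31 genes of the whole list, 6 were higher in adults without overlap (Acaa1b, Ehhadh, Cpt1a, Acadm, Acadvl and Eci1) and 2 were lower (Acadl and Eci2). Over all genes tested 32.3% did not overlap, 15.8% with adults higher and 16.5% with adults lower, so 8 of 31 is near that background.

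**Figure D2:**
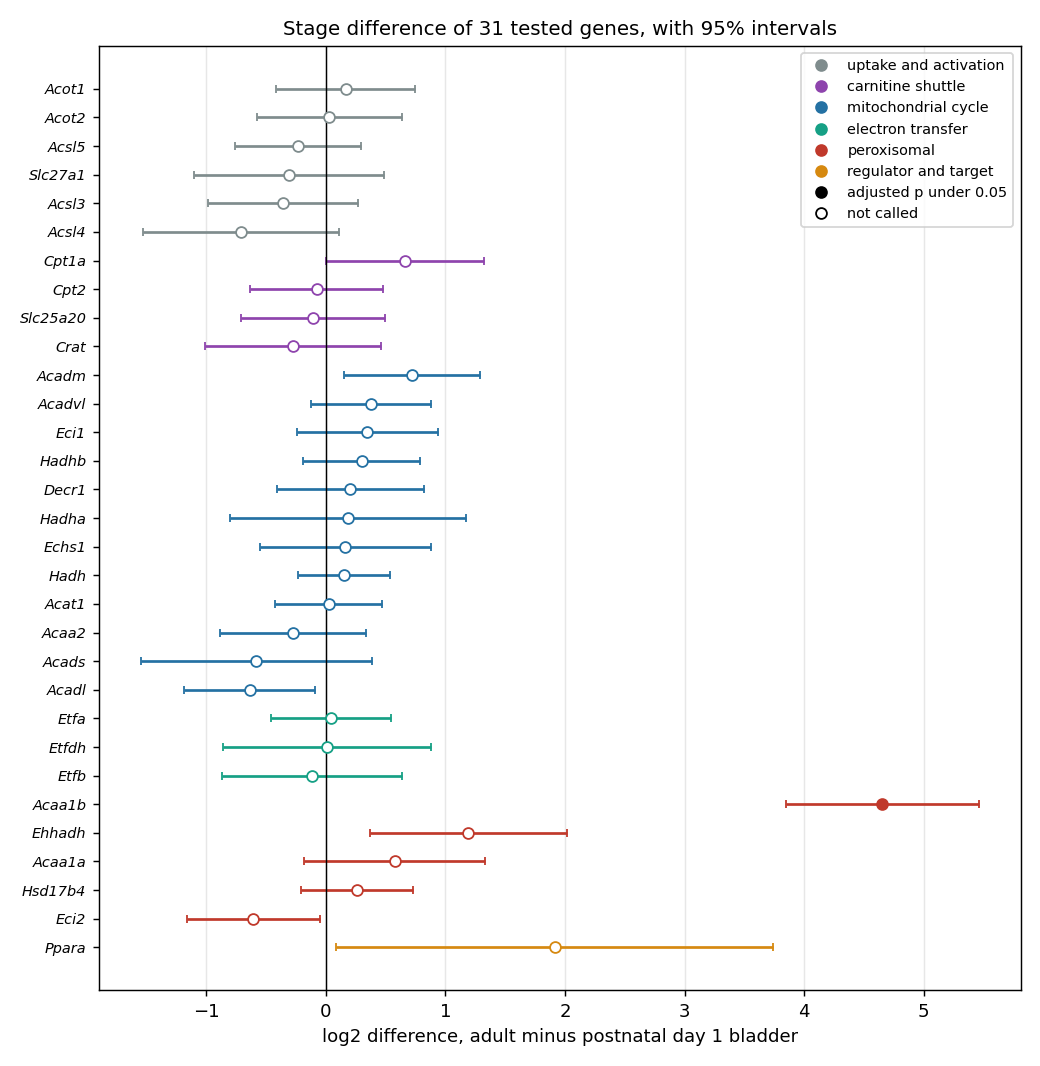
Log2 difference of adult minus postnatal day 1 bladder for the 31 genes tested, each by the probe set that stands for it, with 95% confidence intervals as bars (n = 3 against 3). Acaa1b lies apart at 4.65, and the mitochondrial genes lie between -0.64 and 0.72.

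The acyl-CoA dehydrogenases, which open the mitochondrial cycle, each serve a range of chain lengths, and they did not share a direction. Acadm, for medium chains, read 17312, 10247 and 16685 in adults, against 8679, 9007 and 8390 at postnatal day 1 and 26939 in the whole newborn. The newborn bladders lay close together and below all adults, by 0.72 log2, with a limma adjusted p of 0.118. Without adult replicate 2, the lowest adult array, it passed at 0.96 log2 with a limma adjusted p of 0.0183. Acadl, for long chains, had the most negative stage difference of the group. It read 15803, 10886 and 18493 in adults, against 20415, 26435 and 22254 at postnatal day 1 and 20299 in the whole newborn. Adults were below all newborn bladders by -0.64 log2, with a limma adjusted p of 0.147. Acadvl, for very long chains, differed by 0.38 log2 without overlap and Acads, for short chains, by -0.58 log2 with overlap.

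The enzymes after the first step had differences from -0.27 to 0.35 log2. Hadha and Hadhb, the subunits of the trifunctional protein for long chains, differed by 0.19 and 0.30 log2. Echs1, the short-chain hydratase, and Hadh, the short-chain dehydrogenase, differed by 0.16 and 0.15 log2. The thiolase gene Acaa2 differed by -0.27 log2 and Acat1, the acetoacetyl-CoA thiolase, by 0.02 log2. Of the enzymes for unsaturated chains, Decr1, a dienoyl-CoA reductase, differed by 0.21 log2 and Eci1, an isomerase, by 0.35 log2. The limma adjusted p of these 8 genes ran from 0.453 to 0.96.

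None of the 4 genes for entry into the mitochondrion passed by the probe set that stood for it. Cpt1a, the liver form of the carnitine palmitoyltransferase that commits long chains to oxidation, read 1835, 2926 and 1882 in adults, against 1251, 1402 and 1400 at postnatal day 1 and 3996 in the whole newborn. All adults were above all newborn bladders, by 0.66 log2, with a limma adjusted p of 0.209. Crat, which transfers short acyl groups to carnitine, was the lowest of the shuttle genes. It read 392.1, 566 and 591 in adults, against 603, 578 and 699 at postnatal day 1 and 1891 in the whole newborn, with overlap and a difference of -0.27 log2. Cpt2, the inner-membrane transferase, and Slc25a20, the acylcarnitine carrier, differed by -0.08 and -0.11 log2.

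The differences of the electron acceptors lay close to 0. Etfa and Etfb, the subunits of the electron transfer flavoprotein, differed by 0.04 and -0.11 log2, and Etfdh, which hands the electrons on to ubiquinone, by 0.01 log2. Etfa read 14229, 9805 and 12526 in adults, against 12711, 11664 and 10772 at postnatal day 1 and 20379 in the whole newborn. Etfb read 2107, 2862 and 3177 in adults, against 2086, 2672 and 4361 at postnatal day 1 and 7215 in the whole newborn. In both the adult and newborn bladder arrays were mixed in order.

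Of the 6 uptake and activation genes tested none passed, and 4 were negative. Acsl4, an acyl-CoA synthetase that prefers arachidonic acid, was the lowest. It read 6728, 2835 and 5847 in adults, against 5668, 9712 and 8987 at postnatal day 1 and 3656 in the whole newborn. The groups overlapped, and the difference was -0.71 log2 with a limma adjusted p of 0.280. Acsl3 and Acsl5, of the same enzyme family, differed by -0.35 and -0.23 log2, and the fatty acid transporter Slc27a1 by -0.31 log2. Acot1, a cytosolic acyl-CoA thioesterase, was the highest at 0.17 log2. It read 4137, 3219 and 4823 in adults, against 3661, 3257 and 3782 at postnatal day 1 and 9138 in the whole newborn, with overlap. Its mitochondrial relative Acot2 differed by 0.03 log2.

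Ppara was weakly measured. Its probe set read 793, 601 and 302 in adults, against 52.2, 8.56 and 567 at postnatal day 1 and 1200 in the whole newborn. The adults were above the array median on all 3 arrays and the newborn bladders on 1 of 3, and postnatal day 1 replicate 3 overlapped with the adults. The difference was 1.91 log2 (SE 0.81), with a limma adjusted p of 0.190. Without postnatal day 1 replicate 3 it passed, at 2.92 log2 with a limma adjusted p of 0.0288. The newborn bladder values then left, 52.2 and 8.56, were under the array median. Ppara thus passed the filter through the adult arrays alone there, and the size of that difference depends on the added constant. The other 2 Ppara probe sets did not pass the filter. Slc27a2, a transporter and very-long-chain acyl-CoA synthetase, and Cyp4a14, an omega-hydroxylase, were too low in bladder to be tested for stage.

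Other probe sets of the same genes did not always follow the one that stood for the gene. For Cpt1a a second probe set read 2083, 2254 and 1935 in adults, against 660, 761 and 472 at postnatal day 1 and 1089 in the whole newborn. It rose by 1.67 log2 (limma adjusted p = 0.0115), and the other differed by 0.68 log2 (limma adjusted p = 0.213), both without overlap. As for Acaa1a, the names of both mark them as open to cross-hybridisation with similar transcripts. For Decr1 a second probe set read 2926, 1761 and 3006 in adults, against 800, 692 and 753 at postnatal day 1 and 2342 in the whole newborn. It rose by 1.68 log2 (limma adjusted p = 0.0130), while the brighter one differed by 0.21 log2. Of all probe sets tested for stage 7.85% passed. For Acaa2 a second probe set was lower in adults without overlap, by -1.14 log2 (limma adjusted p = 0.0907). For Acat1 one was lower without overlap, by -0.71 log2 (limma adjusted p = 0.144), and a further one differed by -0.23 log2 with overlap. For Acsl3 one was higher without overlap, by 0.92 log2 (limma adjusted p = 0.163), and a further one differed by 0.06 log2 with overlap. When genes were represented by the mean of their probe sets, 4 passed and all were higher in adults, Acaa1b, Cpt1a, Decr1 and Ehhadh. How many of all genes passed under that setting is not given.

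**Figure D3:**
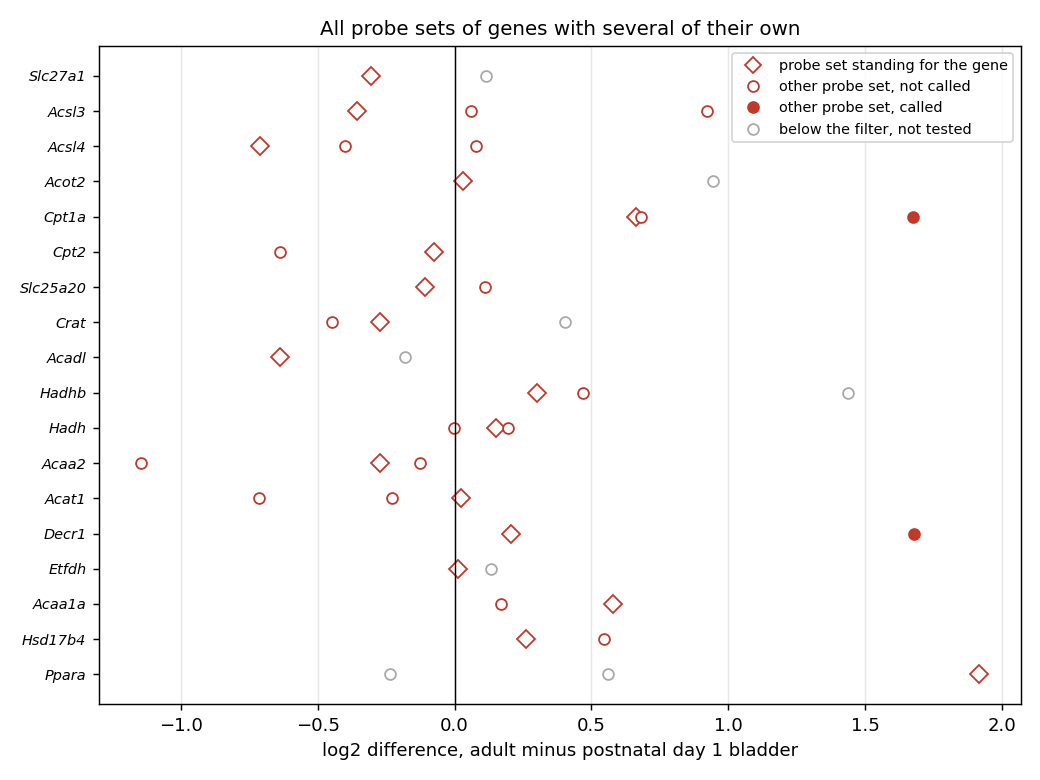
Log2 difference of adult minus postnatal day 1 bladder for every probe set of the genes with more than 1, with the probe set that stands for the gene marked. Cpt1a and Decr1 have a called probe set at 1.67 and 1.68 that is not the brightest one, and the probe sets of Acaa2 spread down to -1.14.

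Genes of the same pathways outside the list were compared in the same way. Of 22 other genes of mitochondrial fatty acid oxidation tested, 1 rose and 1 fell, with a median of 0.50 log2. Positive differences were found for 17 of the 22, as for 5902 of all 11930 genes tested. Without overlap 7 were higher in adults and 3 lower, beside 15.8% and 16.5% of all genes. Acad10, an acyl-CoA dehydrogenase relative, read 518, 746 and 817 in adults, against 44.2, 195 and 86.3 at postnatal day 1 and 323 in the whole newborn. It was called higher in adults (limma adjusted p = 0.0180), but its newborn bladder values were all under the array median, so it passed the filter through the adult arrays alone and the size of its difference depends on the added constant. Acot9, a mitochondrial thioesterase, read 12082, 9095 and 8618 in adults, against 16775, 24880 and 16680 at postnatal day 1, and fell by 0.96 log2 (limma adjusted p = 0.0470). Both genes' stage groups lay apart.

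Of 16 other peroxisomal oxidation genes tested, 1 rose and 0 fell, beside 4.02% and 4.95% of all genes. Their median was 0.53 log2, and 14 of the 16 were positive, as were 5902 of all 11930 genes tested. Mlycd is both in this list and in the list of other mitochondrial genes. The one that rose was Acbd5, a peroxisomal membrane protein that binds very-long-chain acyl-CoA. It read 4312, 4652 and 3489 in adults, against 1189, 1388 and 1420 at postnatal day 1 and 2437 in the whole newborn, a difference of 1.60 log2 (limma adjusted p = 0.00864). In this list 8 of 16 genes were higher in adults without overlap and none lower, beside the 15.8% and 16.5% of all genes. Of 13 genes for peroxisome assembly none passed, with a median of 0.29 log2 and a range of -0.92 to 0.98.

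The respiratory chain and the citrate cycle, which receive the products of oxidation, had medians below 0. Of 25 respiratory chain genes tested 1 rose and 3 fell, with a median of -0.23 log2. Sdha, the flavoprotein subunit of complex II, read 30081, 27479 and 31111 in adults, against 14632, 13438 and 16027 at postnatal day 1, and rose by 1.01 log2 (limma adjusted p = 0.0124). Atp5o, Cycs and Uqcrc1 fell by 1.19, 1.06 and 0.93 log2. Of 17 citrate cycle genes none passed, and the median was -0.14 log2. The 3 tested genes of ketone body metabolism did not pass, with differences from -0.30 to -0.15 log2. Of 16 genes of fatty acid synthesis 1 rose, Scd1, the stearoyl-CoA desaturase, by 1.52 log2 (limma adjusted p = 0.0464).

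**Figure D4:**
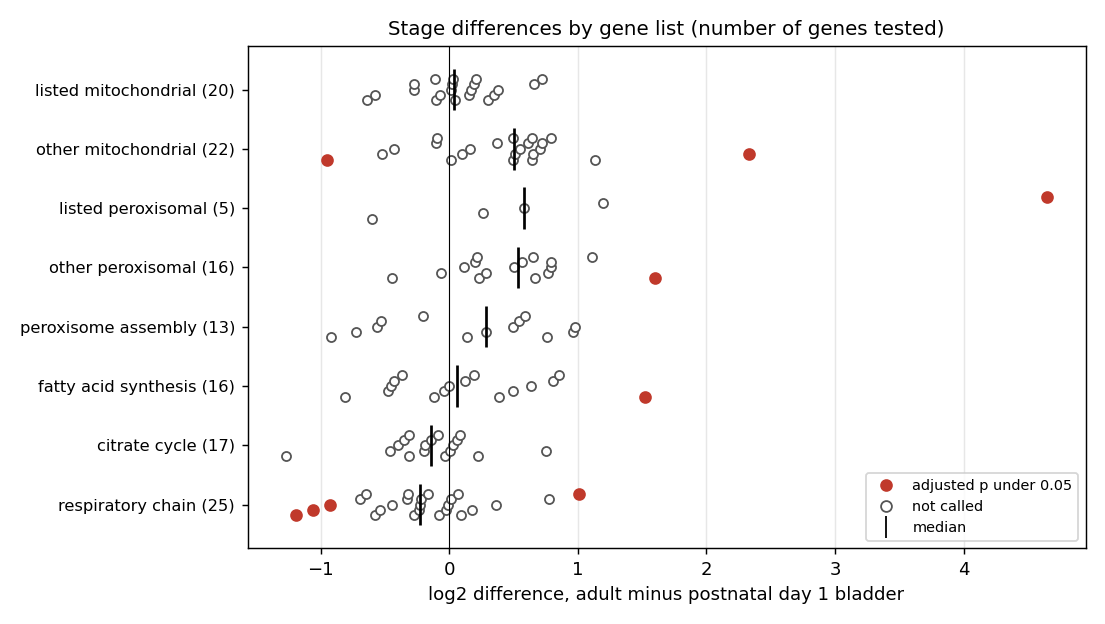
Log2 difference of adult minus postnatal day 1 bladder for each tested gene of the listed mitochondrial and peroxisomal genes and of the 6 other lists shown; filled points passed the test and the bars are medians. Of the lists shown, the listed peroxisomal genes have a median of 0.58 and the respiratory chain one of -0.23.

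Among 13 regulators of lipid metabolism tested, 1 rose and 0 fell. It was Ppargc1a, a coactivator that works with PPAR-alpha and drives mitochondrial biogenesis. It read 2278, 1850 and 3320 in adults, against 730, 441 and 280 at postnatal day 1 and 3536 in the whole newborn. All adults were above all newborn bladders, by 2.30 log2 (limma adjusted p = 0.00993). Among 13 other known PPAR targets tested, 1 rose and 0 fell. It was Plin2, a coat protein of lipid droplets, with 16754, 17078 and 15694 in adults, against 7192, 5575 and 7354 at postnatal day 1 and 35101 in the whole newborn. The difference was 1.30 log2 (limma adjusted p = 0.00864).

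The second question was how bladder compares with the whole newborn animal, which contains liver, heart, brown fat and intestine. In postnatal day 1 bladder 9 of 33 genes were lower than in the whole newborn and 0 higher. The 9 include Slc27a2 and Cyp4a14, which were high in the newborn array and, but for 1 bladder value of Slc27a2, under the array median in bladder. Cyp4a14 passed the filter there through the newborn array alone, so its place in the count is a description. Over all 13745 genes tested 9.58% passed in limma's test, 6.39% lower and 3.19% higher. The median of the listed genes was -1.16 log2, against -0.00 over all genes. All 3 bladder arrays lay below the whole newborn array for 28 of the 33, against 33.8% of all genes. All 3 lay above it for Acsl3, Acsl4 and Acadl, against another 33.8% of all genes. These positions are those of the probe set that stood for each gene. For Acsl4 another probe set read 1162, 876 and 963, below the newborn's 1741, and a further one 1135, 752 and 1703, above its 535. For Acsl3 another read 1678, 1804 and 1705, above 1265, and a further one 310, 658 and 549, around 547.

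In adult bladder, set against the same whole newborn array, 9 of 33 genes were lower and 0 higher, again with Slc27a2 and Cyp4a14 among them. Over all 13504 genes tested 15.3% passed, 9.23% lower and 6.1% higher. The median of the listed genes was -1.04 log2, against -0.03 over all genes, and all 3 adult arrays lay below the newborn array for 29 of 33, against 36.7% of all genes, and above it for 0, against 34.5% of all genes. Another Cpt1a probe set, at 2083, 2254 and 1935 in adults, lay above the newborn's 1089, and other probe sets of Acsl3 and Acsl4 lay above too. A further probe set of Cpt1a and of Acsl4 lay below. Both comparisons share the single newborn array, and its own spread could not be measured.

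The scaling of the arrays matters here. Centring each array on its median moved the median of all probe sets up by 0.67 log2 for adult bladder and 0.68 log2 for postnatal day 1 bladder. The listed genes' medians were then -0.37 log2 in adults and -0.48 log2 at postnatal day 1. The number called was then 3 in adults (Cyp4a14, Ehhadh and Slc27a2) and 4 at postnatal day 1 (Acaa1b with the same 3). All 3 bladder arrays then lay below the newborn for 18 genes in adults, against 19.4% of all genes, and for 19 at postnatal day 1, against 15.2% of all genes. Quantile normalization moved the median of all probe sets by 0.34 log2 for adult bladder and 0.36 log2 for postnatal day 1 bladder, and the number called went the other way, to 12 in adults and 13 at postnatal day 1. The listed genes' medians were then -0.95 log2 in adults and -1.17 log2 at postnatal day 1. All 3 arrays lay below the newborn for 28 genes at each age, against 31.8% of all genes in adults and 27.8% at postnatal day 1. Over all probe sets the number called after centring was 3896 in adults and 2510 at postnatal day 1. After quantile normalization it was 3807 in adults and 2452 at postnatal day 1. These count probe sets, so they cannot be set beside the shares of genes given above.

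Slc27a2 and Cyp4a14 were bright in the whole newborn and low in bladder. Slc27a2 read 4.52, 11.8 and 22.4 in adult bladders, 283, 6.15 and 9.07 in postnatal day 1 bladders, and 51370 in the whole newborn. Cyp4a14 read 74.4, 36.4 and 87.2 in adult bladders, 12.9, 8.09 and 257 in postnatal day 1 bladders, and 48839 in the whole newborn. Every bladder value of both genes was at or under its array's median except Slc27a2 in postnatal day 1 replicate 1, so the bladder side is a low signal with no exact level. In the adult comparison both passed the filter through the newborn array alone, and so did Cyp4a14 at postnatal day 1. Those calls carry no more than the values given, and the size of the gap depends on the added constant. With constants of 9 and 165 the adult difference of Slc27a2 was -11.28 and -8.18 log2.

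Ehhadh was above the array median on every bladder array and lower than in the whole newborn. Its mean was 7.39% of the newborn array's intensity in adult bladder and 2.95% in postnatal day 1 bladder. The differences were -3.76 log2 (limma adjusted p = 0.00214) and -4.95 log2 (limma adjusted p = 0.000844). Acaa1b set the stages apart: its mean was 109% of the newborn array in adult bladder and 4.13% in postnatal day 1 bladder. The adult difference was 0.04 log2, with a limma adjusted p of 0.973, and the postnatal day 1 difference -4.61 log2, with a limma adjusted p of 0.00110. The 95% interval of the adult difference ran from -1.09 to 1.16 log2.

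**Figure D5:**
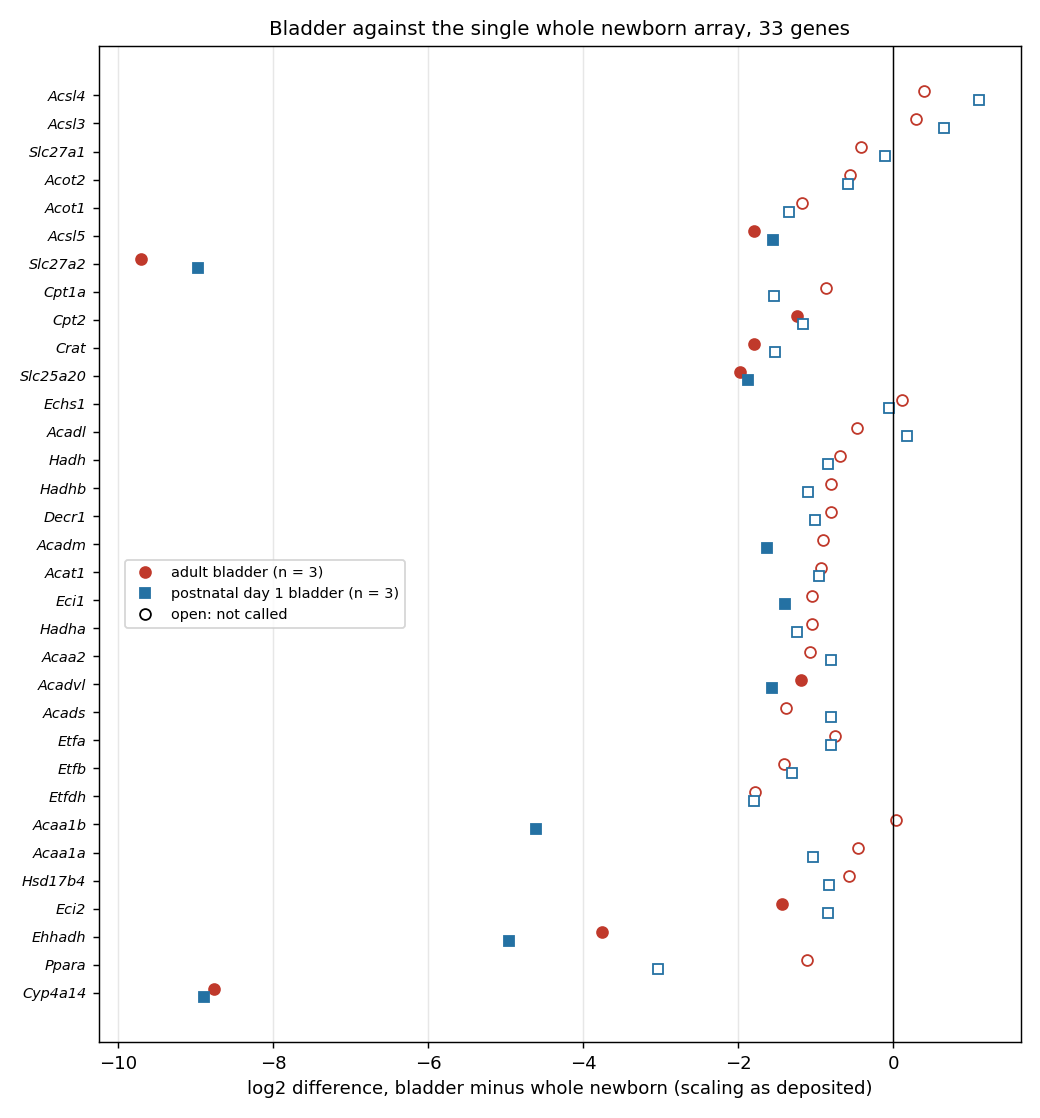
Log2 difference of adult bladder and of postnatal day 1 bladder from the single whole newborn array for 33 genes, with the arrays scaled as deposited; filled points passed the test. Slc27a2 and Cyp4a14 lie far to the left at both stages, at distances that depend on the added constant, Ehhadh lies between -3.76 and -4.95, and Acaa1b lies near 0 in adults and at -4.61 at postnatal day 1.

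Of the 20 mitochondrial genes, 4 were lower than in the newborn animal in each comparison and 16 did not pass. Echs1 was at 0.11 log2 in adults and -0.05 log2 at postnatal day 1, and Acadl was at -0.46 log2 in adults and 0.17 log2 at postnatal day 1. At postnatal day 1 the 4 that passed were Slc25a20 at -1.87, Acadm at -1.63, Acadvl at -1.57 and Eci1 at -1.39 log2. In adults the 4 that passed were Slc25a20 at -1.98, Crat at -1.80, Cpt2 at -1.24 and Acadvl at -1.19 log2. The medians of the 20 were -0.98 log2 in adults and -1.13 log2 at postnatal day 1. None of these calls held after centring. Without adult replicate 1 the number of all listed genes called in adults was 5, without Acadvl, Cpt2, Crat and Eci2, and without adult replicate 3 it was 6, without Acadvl, Cpt2 and Crat. Without postnatal day 1 replicate 1 or 2 it was 7 at that age, without Acadm and Eci1. Of the other genes, Acsl5, an intestine-rich acyl-CoA synthetase, was lower in adults at -1.79 log2 and at postnatal day 1 at -1.56 log2, and Eci2 was lower in adults at -1.44 log2.

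Slc25a20, the carrier of acylcarnitines, read 6946, 7915 and 8518 in adults, 10447, 9444 and 5931 at postnatal day 1, and 30755 in the whole newborn. Acsl5 read 11007, 10682 and 11543 in adults, 9877, 14544 and 15422 at postnatal day 1, and 38427 in the whole newborn. Every bladder array was far below the newborn array in both. Hadh and Acat1 were bright throughout bladder, with ranges of 48725 to 67615 and 23081 to 31277 over the 6 arrays, and 92048 and 53365 in the whole newborn. The name of that Hadh probe set also marks it as open to cross-hybridisation. Other Hadh probe sets were dimmer, at 6710 to 15616 and 4047 to 7620 in bladder.

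Markers of organs known for fatty acid oxidation were read on the same arrays. All 9 hepatocyte markers on the array were called lower in both bladder stages than in the whole newborn. Over all genes 9.23% were called lower in adults and 6.39% at postnatal day 1. Only 1 of the 9 was above the array median on all 6 bladder arrays. A marker high in the newborn array alone can pass the filter of these comparisons, so the marker counts here are descriptions. Summed hepatocyte intensities were 6668 to 10064 in adults, 2272 to 12007 at postnatal day 1 and 445193 in the whole newborn. Of the heart markers 5 of 7 tested were lower in adults than in the whole newborn, and at postnatal day 1 4 of 8 were lower and 1 higher. Their sums were 20140 to 50565 in adults, 94253 to 123237 at postnatal day 1 and 102343 in the whole newborn. A sum follows its brightest genes. The median heart marker difference from the whole newborn was -3.84 log2 in adults and -1.80 log2 at postnatal day 1. At postnatal day 1 the heart markers ran from -7.73 to 2.82 log2. Brown fat markers summed to 3550 to 4566 in adults, 992 to 2160 at postnatal day 1 and 56401 in the whole newborn. Ppargc1a, given above among the lipid regulators, is also in this list, and its intensity is most of each adult sum. Kidney proximal tubule markers summed to 374 to 1218 in adults, 692 to 847 at postnatal day 1 and 6299 in the whole newborn. Intestine markers summed to 182 to 438 in adults, 1383 to 2704 at postnatal day 1 and 165012 in the whole newborn. The part of these organs in the differences was not tested. The respiratory chain, with medians of -0.81 log2 in adults and -0.46 log2 at postnatal day 1, and the citrate cycle, with -0.76 and -0.54 log2, had medians below 0 as well.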

How the data were processed

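RNA from 3 adult bladders, 3 postnatal day 1 bladders and 1 pool of whole newborns was measured on 7 one-colour arrays. The deposited file holds linear-scale intensities. The authors used GCOS, per the submitters' processing notes; its version and how probes were summarised were not given in the sources used here. The values show that the authors scaled each array to a mean of 1500.01 without the highest and lowest 2%. Of 45101 probe sets, 64 controls were left out; of the other 45037, 34945 named 1 gene in the platform annotation, 932 several and 9160 none. Annotated symbols can be old.

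A constant of 49, close to the 20th percentile over all arrays, was added to each intensity before log2 was taken, and arrays were not centred. Probe sets above the array median on at least 3 of the 6 bladder arrays, or 1 of the 4 arrays set against the newborn, were tested with limma 3.58.1 in R 4.3.3 (lmFit, eBayes with trend, two-sided, Benjamini-Hochberg adjusted p under 0.05 over all probe sets). The newborn comparisons used all 7 arrays in 3 groups, the single newborn array being assumed to vary like the bladders. No p-value comes from a listed gene set. The step was tested on simulated data. The genes and lists were chosen with earlier results of these data known, and so support no direction on their own. Genes given per array were those called for stage, those apart by at least 1 log2 without overlap, and the highest and lowest of each role group; a few others were named after their values were seen. From each other list up to 4 called genes with the smallest adjusted p were named. Alternatives were other constants (9 and 165), median centring, quantile normalization, other filters, eBayes without trend, array weights, the mean of a gene's probe sets, all 7 arrays in 1 fit, and leaving out each bladder array.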

Additional observations from a re-analysis of the deposited data

How the results depend on the processing

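Acaa1b was higher in adult bladder and past the threshold in every stage alternative run, between 4.23 and 5.35 log2, and no called value of a listed gene reversed. The number of listed genes called for stage, 1, became 3 with array weights, 4 with the mean of each gene's probe sets, and 1 to 3 when 1 array was left out (3 without adult replicate 2, 2 without postnatal day 1 replicate 3). For adult bladder against the whole newborn the number called, 9, became 3 with median centring, 21 with array weights, 16 with the mean of probe sets, and 5 to 12 when 1 array was left out (5 without adult replicate 1). For postnatal day 1 bladder it was also 9 and became 4 with median centring, 5 without a trend in eBayes, 17 with array weights, 15 with the mean of probe sets, and 7 to 10 when 1 array was left out. The other alternatives were chosen after seeing the data. With adult replicate 2 and postnatal day 1 replicate 3 left out, the array of each stage with most spike-in signal, the counts were 3 for stage, 16 for adult and 17 for postnatal day 1 bladder against the newborn. Without the adult arrays that carried accessory gland transcripts, leaving 1 adult array assumed to vary like the postnatal day 1 arrays, they were 1 for stage and 5 for adult bladder against the newborn. All called genes were higher for stage and lower against the newborn. For most of these alternatives the share of all genes called is not given. The counts therefore show how calls depend on processing, and nothing particular to the listed genes. The cause of these shifts was not tested. Over single genes, 1326 alternative values stayed on the same side of the threshold, 73 newly passed and 37 no longer passed. No paired analysis was possible because the labels give no numbers shared between groups. The number of arrays limits the precision.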

Other observations

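Genes of omega-oxidation, the route that makes dicarboxylic acids from the methyl end of fatty acids, included some far higher in adult bladder. Of 14 on the array 8 passed the filter for the stage comparison and 3 were called higher, beside 4.02% of all genes; since a gene high in adults alone can pass that filter, the count is a description. Cyp4f15, a fatty acid hydroxylase of the P450 family, read 7289, 9010 and 7571 in adult bladders, against 359, 522 and 115 in postnatal day 1 bladders and 923 in the whole newborn. It rose by 4.57 log2 (limma adjusted p = 0.00120), and the adult bladders were above the whole newborn array by 3.04 log2 (limma adjusted p = 0.0163). Cyp4v3, another hydroxylase, was above the array median on every bladder array and rose by 1.98 log2 (limma adjusted p = 0.00639). Aldh3a1, an aldehyde dehydrogenase, read 2143, 2215 and 2124 in adults, against 70.05, 37.3 and 65.5 at postnatal day 1 and 115 in the whole newborn. Its postnatal day 1 and whole newborn values were all under the array median and near the added constant of 49, so no exact difference is given.

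Genes of lipid uptake and storage were mixed between the stages. Of 12 tested, Plin2 and Lpl rose and Fabp4 fell. Lpl, the lipase that frees fatty acids from blood lipoproteins, read 32033, 10601 and 29009 in adults, against 8726, 7235 and 5776 at postnatal day 1 and 77988 in the whole newborn. The groups did not overlap, and adult replicate 2 was well below the other adults, and the difference was 1.58 log2 (limma adjusted p = 0.0447). Fabp4, a fatty acid carrier of fat cells and capillaries, read 26314, 24909 and 25855 in adults, against 40030, 50074 and 39830 at postnatal day 1 and 50753 in the whole newborn. It fell by 0.74 log2 (limma adjusted p = 0.0345).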
